A study of Mus musculus with 6 samples.

Results

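The genes described here are 9 transcripts that mark or control mouse monocytes, matched by symbol in the table, out of 21956 genes listed. Ly6c2, Ccr2 and Cd14 mark classical monocytes, Cx3cr1, Nr4a1, Treml4 and Spn mark patrolling monocytes, and Csf1r and Cebpb serve both. All 9 were found once in the table and all 9 passed the filter on low counts, among 12551 genes tested.

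RNA sequencing was done on 3 VE and 3 Aalter libraries, made from mouse material labelled lung tissue with a messenger RNA kit. The series title is about alpha tocopherol (a vitamin E compound) in allergic airway inflammation, and the comparison asks how transcript levels in VE differ from those in Aalter. The labels do not spell out either group name and give no genotype, strain, treatment, time, age or pooling of animals, and no untreated group was analysed here. Since nothing says that a group's 3 libraries are separate animals, the spread behind each p-value may be technical.

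Classical monocytes leave the bone marrow through the chemokine receptor CCR2, enter inflamed tissue, and carry high surface Ly6C in the mouse. Patrolling monocytes arise largely from classical ones, crawl along the walls of small vessels, carry high CX3CR1 and CD43 with low Ly6C, and in the mouse depend on the nuclear receptor NR4A1. In the lung both kinds reach the tissue from blood, and classical monocytes can give rise to macrophages and to dendritic-like cells. These transcripts are shared with other cells. Cd14 is also made by activated neutrophils and macrophages, Spn by T and natural killer cells, Cx3cr1 by natural killer cells and some macrophages, and Nr4a1 by many cells soon after stimulation.

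Libraries held 11617074 to 16205053 estimated counts. On the first principal component, with 66.7% of the variance, VE libraries scored -40.2 to -36.0 and Aalter-2 and Aalter-3 scored 61.4 and 56.0, while Aalter-1 stood at -2.34. Results are therefore also given without Aalter-1. That library was set aside from these same data as the Aalter library nearest VE, so all values without it are a description only. Defining markers of the lung were low, with the alveolar type 2 cell gene Sftpc at 12.6 to 18.3 CPM over the 6 libraries (CPM, the normalised read count used throughout), while the neutrophil gene S100a9 reached 11675 to 20619 CPM. In bulk RNA of this kind, fewer cells of a type and less RNA per cell cannot be told apart.

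The 9 genes did not move as 2 blocs. The classical markers Ly6c2, Ccr2 and Cd14 were higher in VE, with log2 fold changes (VE over Aalter) of 0.74 to 0.87, and so was the receptor gene Csf1r. The 4 patrolling markers split, since Cx3cr1 and Spn fell, Treml4 rose, and Nr4a1 was lower in VE without passing the test. In all, 5 of the 9 genes rose and 2 fell at an adjusted p below 0.05 (edgeR quasi-likelihood test, Benjamini-Hochberg over all genes), where 12.8% of all genes tested rose and 19.5% fell (32.3% together). The groups did not overlap for any of the 9, with VE above in 6 and below in 3, against 25.6% and 26.3% of all genes (51.9% together). The median log2 fold change was 0.66 for the 9 genes and 0.023 for all genes tested. The mean of the 9 genes, which went both ways, was 0.0034. Without Aalter-1, 5 rose and 3 fell, where 27.8% and 28.5% of all genes did. Leaving out any other single library ended all 5 rises, and also ended calls over most of the table (at most 110 genes rose in those 5 fits), while no gene of the 9 changed sign. In those fits 5 or 6 of the 9 were higher and 2 or 3 lower at an unadjusted p below 0.05.

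**Figure D1:**
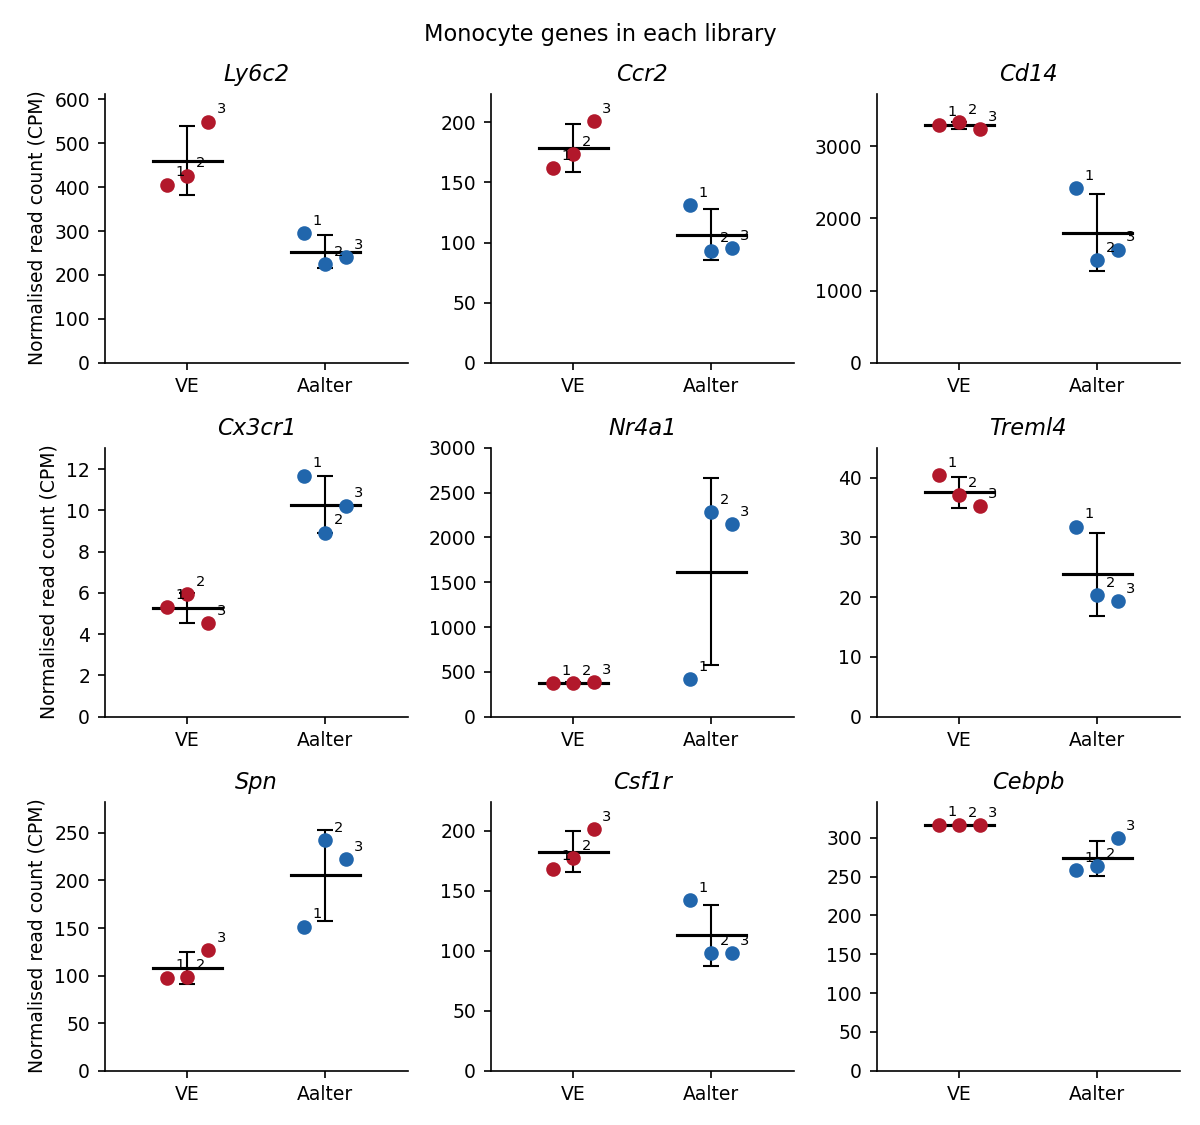
Normalised read count (CPM, linear axes from 0) of each of the 9 genes in 3 VE libraries (red) and 3 Aalter libraries (blue), with the replicate number beside each point, and the mean and SD as bars. VE points lie above Aalter points for Ly6c2, Ccr2, Cd14, Treml4, Csf1r and Cebpb and below them for Cx3cr1, Nr4a1 and Spn, and Nr4a1 in Aalter-1 (421 CPM) sits beside VE, far under Aalter-2 and Aalter-3.

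Among the classical markers, Ly6c2 encodes a GPI-anchored surface protein seen by the Ly6C antibodies that define these cells. It had 406, 427 and 550 CPM in VE-1 to VE-3 and 295, 225 and 240 CPM in Aalter-1 to Aalter-3. The lowest VE library was above the highest Aalter library. The means were 461 ± 77.9 CPM in VE and 253 ± 36.9 CPM in Aalter (SD, n = 3 each), a 1.82-fold level in VE. The log2 fold change was 0.86 ± 0.16 (SE), with an adjusted p of 0.0116 from edgeR, and 0.99 without Aalter-1. Ly6c2 (ENSMUSG00000022584) is a protein-coding gene at chr15:75108158-75111970 on the minus strand (mm10).

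Ly6c2 has a near-identical neighbour, Ly6c1, which endothelial cells and some lymphocytes express. Their coding sequences were identical at 91.6% of aligned bases, and 165 of the 344 words of 50 bases in the Ly6c2 coding sequence also occur in transcripts of other genes, 162 of them in Ly6c1. Estimated counts of both were not whole in all 6 libraries, so how reads were split between them is uncertain. Ly6c1 had 20.7, 22.1 and 23.4 CPM in VE and 15.6, 15.01 and 10.3 CPM in Aalter. Ly6c1 rose by 0.70 ± 0.17 (adjusted p = 0.0242), and did not pass once trends on GC content and transcript length were taken out of each library (0.22), where Ly6c2 still passed (0.70). The count of Ly6c2 was 19.3 to 23.5 times that of Ly6c1 in VE and 14.96 to 23.3 times in Aalter, and these ranges overlap. The promoter of Ly6c2 is shown because it holds AGGAAG, the core letters bound by the ETS family to which PU.1 (Spi1, below) belongs, at 2 places, in capitals. The window runs from 250 bases before to 50 after the RefSeq start (chr15:75111922-75112221, minus strand, GRCm38.p6, given 5′ to 3′ on the gene's strand). On either strand AGGAAG occurs in 35.4% of 32851 RefSeq windows of 300 bases, so its presence sets no gene apart.
Ly6c2: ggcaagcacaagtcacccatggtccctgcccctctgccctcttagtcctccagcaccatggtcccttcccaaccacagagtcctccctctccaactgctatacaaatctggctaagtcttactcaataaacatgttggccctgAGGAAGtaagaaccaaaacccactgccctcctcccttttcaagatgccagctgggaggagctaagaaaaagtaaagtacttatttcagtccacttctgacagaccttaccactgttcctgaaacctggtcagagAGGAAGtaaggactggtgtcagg

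Ccr2 encodes the receptor for the chemokines CCL2 and CCL7, by which classical monocytes leave the marrow. It had 162, 174 and 201 CPM in VE and 131, 93.2 and 95.4 CPM in Aalter. All VE libraries were above all Aalter libraries, of which Aalter-1 was the highest. The rise was 0.74 ± 0.16 on the log2 scale (adjusted p = 0.0164), and 0.92 without Aalter-1. Its estimated counts were not whole in 5 libraries. Ccr2 (ENSMUSG00000049103) lies at chr9:124101950-124113557 on the plus strand.

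Cd14 encodes the co-receptor that hands bacterial lipopolysaccharide to TLR4. It had 3297, 3337 and 3240 CPM in VE and 2417, 1423 and 1567 CPM in Aalter, with no overlap. The VE libraries lay close together (3291 ± 49.0 CPM, SD, n = 3), and the Aalter libraries were spread by Aalter-1 (1802 ± 537 CPM). Cd14 rose by 0.87 ± 0.20 (adjusted p = 0.0197), and by 1.14 without Aalter-1. It was the 31st highest of 12551 genes by mean CPM. Cd14 (ENSMUSG00000051439) lies at chr18:36725067-36726798 on the minus strand.

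Csf1r encodes the receptor for CSF1 and IL-34, on which monocytes and macrophages depend, patrolling monocytes most of all in the mouse. It had 168, 177 and 201 CPM in VE and 142, 98.0 and 97.9 CPM in Aalter. The groups did not overlap, and Aalter-1 was again the Aalter library nearest to VE. Csf1r rose by 0.69 ± 0.17 (adjusted p = 0.0210). With library size alone as the scaling it did not pass (0.55, adjusted p = 0.0590, where its adjusted p over 16 alternatives ran from 6.61e-09 to 0.0930), and with GC content and length trends removed it was at 1.12. Exons of Hmgxb3 on the opposite strand cover 15.1% of its exon bases, and the strand setting of the counting is not given in the sources used here. Csf1r (ENSMUSG00000024621) lies at chr18:61100598-61132149 on the plus strand.

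Ccr2 and Csf1r kept nearly 1 ratio of counts in every library, at 0.961, 0.981 and 0.999 in VE and 0.926, 0.952 and 0.974 in Aalter, with overlapping groups. Ly6c2 against Ccr2 gave 2.51, 2.46 and 2.73 in VE and 2.25, 2.41 and 2.51 in Aalter, which overlap too. The pairs given as ratios were chosen after their values were seen, and are a description with no test.

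Among the patrolling markers, Cx3cr1 encodes the receptor for fractalkine (CX3CL1), which keeps patrolling monocytes alive and at the vessel wall. It had 5.30, 5.95 and 4.52 CPM in VE and 11.7, 8.92 and 10.2 CPM in Aalter. Every VE library was below every Aalter library, and here Aalter-1 was the farthest from VE. These values rest on 74, 71 and 66 counts in VE and 192, 107 and 171 in Aalter. The log2 fall of Cx3cr1 was -0.97 ± 0.17 (adjusted p = 0.0103), and -0.87 without Aalter-1. The call was kept without Aalter-2 or VE-3, and not without Aalter-3, VE-1 or VE-2, with an adjusted p of at most 0.0554 over 16 alternatives. Cx3cr1 (ENSMUSG00000052336) spans chr9:119901616-120069879 on the minus strand, and Gm33858 on the opposite strand covers 1.73% of its exon bases.

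Spn encodes CD43, a long sialomucin whose high surface level helps to sort patrolling monocytes. It had 97.8, 98.0 and 127 CPM in VE and 151, 242 and 222 CPM in Aalter, with no overlap. Spn fell by 0.93 ± 0.20 (adjusted p = 0.0158), by 1.11 without Aalter-1 and by 0.66 with GC content and length trends removed. Leaving out Aalter-2, Aalter-3, VE-1 or VE-2 ended the call, with an adjusted p of at most 0.0839 over 16 alternatives. Spn (ENSMUSG00000051457) lies at chr7:127132232-127137823 on the minus strand. Markers of lymphocytes that also make Spn and Cx3cr1 moved in part, where 12.8% of all genes rose and 19.5% fell. Of 8 T cell markers 5 fell, 1 rose and 2 did not pass, and their summed level was 646 to 724 CPM in VE and 754 to 1058 CPM in Aalter. Of 8 natural killer cell markers 5 fell and 0 rose (2 at an unadjusted p below 0.05, 2 with DESeq2 and 0 with limma-voom), and their sum was 875 to 1382 CPM in VE and 898 to 959 CPM in Aalter, ranges that overlap. Most of that sum was Gzma (0.55) and Gzmb (0.56), which did not pass and were named after their values were seen. No marker of either list was at 0 in any library. Their part in the falls of Spn and Cx3cr1 was not tested.

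Treml4, which encodes a receptor of the TREM-like family used as a marker of patrolling monocytes in the mouse, went the other way. It had 40.4, 37.0 and 35.3 CPM in VE and 31.8, 20.3 and 19.3 CPM in Aalter. The groups did not overlap, and the VE values were close to each other. Treml4 rose by 0.66 ± 0.20 (adjusted p = 0.0396), and by 0.92 without Aalter-1. With library size alone its log2 fold change of 0.51 missed the threshold (adjusted p = 0.107, where its adjusted p over 16 alternatives ran from 9.86e-07 to 0.135). Treml4 (ENSMUSG00000051682) lies at chr17:48264295-48275360 on the plus strand.

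The promoters of these 3 markers are shown because the genes carry the same cell label and differ in direction. Windows are RefSeq's as above, for Cx3cr1 chr9:120068247-120068546, minus strand, for Spn chr7:127137774-127138073, minus strand and for Treml4 chr17:48264045-48264344, plus strand. Capitals mark AGGAAG and the CCAAT box, on either strand (CTTCCT and ATTGG on the other). Cx3cr1 has 1 CCAAT box and 0 AGGAAG, Spn has 2 AGGAAG, and Treml4 has 1 of each. CCAAT occurs in 37.4% of all windows.
Cx3cr1: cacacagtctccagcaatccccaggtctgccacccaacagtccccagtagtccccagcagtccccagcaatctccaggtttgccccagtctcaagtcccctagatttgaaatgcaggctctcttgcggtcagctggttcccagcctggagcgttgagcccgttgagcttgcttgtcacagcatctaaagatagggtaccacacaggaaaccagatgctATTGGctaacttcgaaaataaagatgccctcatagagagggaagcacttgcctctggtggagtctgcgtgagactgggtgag
Spn: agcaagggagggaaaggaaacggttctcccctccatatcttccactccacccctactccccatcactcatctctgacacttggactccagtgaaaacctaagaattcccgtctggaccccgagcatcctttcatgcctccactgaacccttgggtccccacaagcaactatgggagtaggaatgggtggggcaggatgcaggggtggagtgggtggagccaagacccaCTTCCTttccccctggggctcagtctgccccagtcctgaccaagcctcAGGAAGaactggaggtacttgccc
Treml4: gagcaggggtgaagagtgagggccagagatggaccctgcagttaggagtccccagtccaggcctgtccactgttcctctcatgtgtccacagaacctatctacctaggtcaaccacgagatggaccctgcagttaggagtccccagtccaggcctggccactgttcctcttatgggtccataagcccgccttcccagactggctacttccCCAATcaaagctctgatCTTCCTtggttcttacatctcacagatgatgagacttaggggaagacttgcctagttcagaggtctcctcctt

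**Figure D2:**
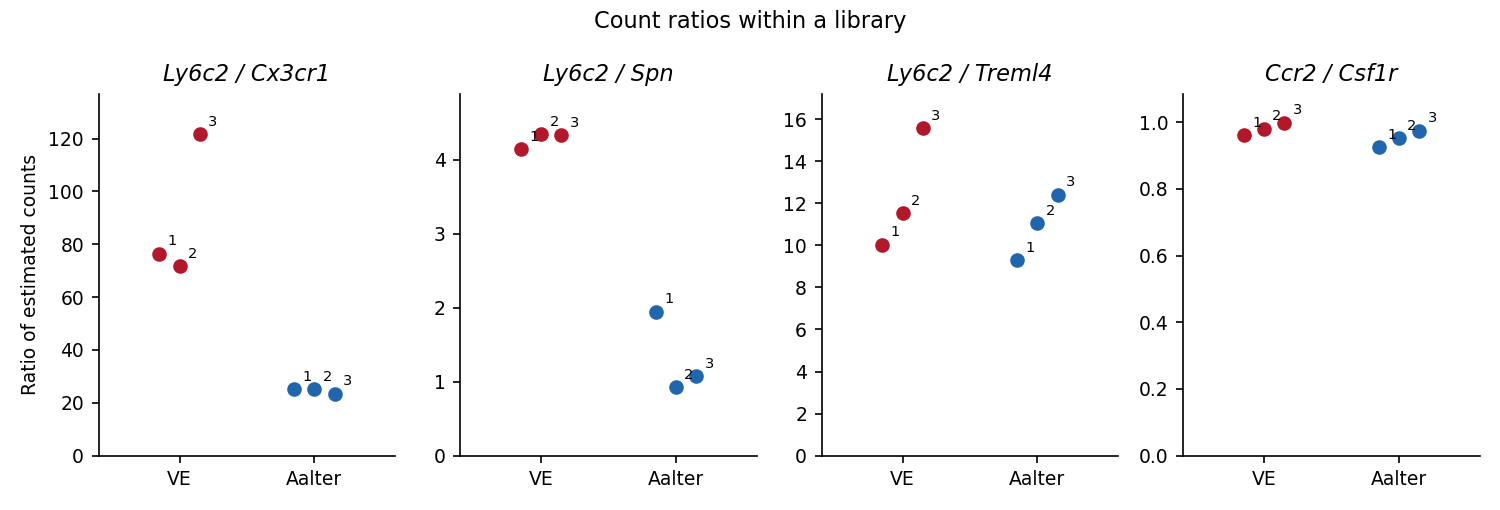
Ratio of estimated counts of 2 genes within a library (linear axes from 0), for 3 VE libraries (red) and 3 Aalter libraries (blue), with replicate numbers. Ly6c2 over Cx3cr1 was 71.7 to 121.6 in VE and 23.4 to 25.2 in Aalter, while Ly6c2 over Treml4 and Ccr2 over Csf1r overlapped between the groups.

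Ratios within a library, which no scaling can move, show the split. Ly6c2 against Cx3cr1 was 76.5, 71.7 and 121.6 in VE and 25.2, 25.2 and 23.4 in Aalter. Ly6c2 against Spn was 4.15, 4.35 and 4.33 in VE and 1.95, 0.928 and 1.08 in Aalter. Both ratios were higher in each VE library than in any Aalter library, Aalter-1 included. Ly6c2 against Treml4 was 10.03, 11.5 and 15.6 in VE and 9.29, 11.1 and 12.4 in Aalter, and these overlap. The groups were thus apart in the ratio to Cx3cr1 or Spn, and not in the ratio to Treml4.

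Nr4a1 encodes an orphan nuclear receptor that patrolling monocytes need in the mouse, and is also an immediate early gene. It had 372, 376 and 382 CPM in VE and 421, 2285 and 2150 CPM in Aalter. Aalter-1 was just above VE, while Aalter-2 and Aalter-3 were several times higher. The log2 fold change was -2.10 ± 0.62, the 149th lowest of 12551 genes, and did not pass (adjusted p = 0.0501). It passed without Aalter-1 (-2.56 ± 0.06, adjusted p = 3.09e-10), with DESeq2 (adjusted p = 0.00848), with library size alone (0.0412) and with a mean of at least 5 CPM (0.0367), and its adjusted p over 16 alternatives reached 0.153. The Nr4a1 mean in Aalter thus differs with the libraries used. The fit without Aalter-1 drops the Aalter library nearest VE, which was set aside from these same data. Its small SE and adjusted p for Nr4a1 are therefore a description only.

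Other genes of the NR4A family and Egr1 had the same arrangement of libraries. Nr4a3, a relative of Nr4a1, had 250, 252 and 257 CPM in VE and 296, 939 and 891 CPM in Aalter, and fell by 1.49 ± 0.41 (adjusted p = 0.0380). Nr4a2 was at -0.93 ± 0.30 (adjusted p = 0.0530) and the immediate early factor gene Egr1 at -1.19 ± 0.44 (adjusted p = 0.0847), and neither passed. Egr1 had 520, 521 and 436 CPM in VE and 438, 1518 and 1402 CPM in Aalter, so that Aalter-1 lay within the VE range. The genes whose centred log2 level was most like that of Nr4a1 over the 6 libraries, of 7909 compared, were Epha2, Egr2 and Rrad, with root mean square differences of 0.0600, 0.0971 and 0.0998. These were looked up after the values of Nr4a1 were seen.

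**Figure D3:**
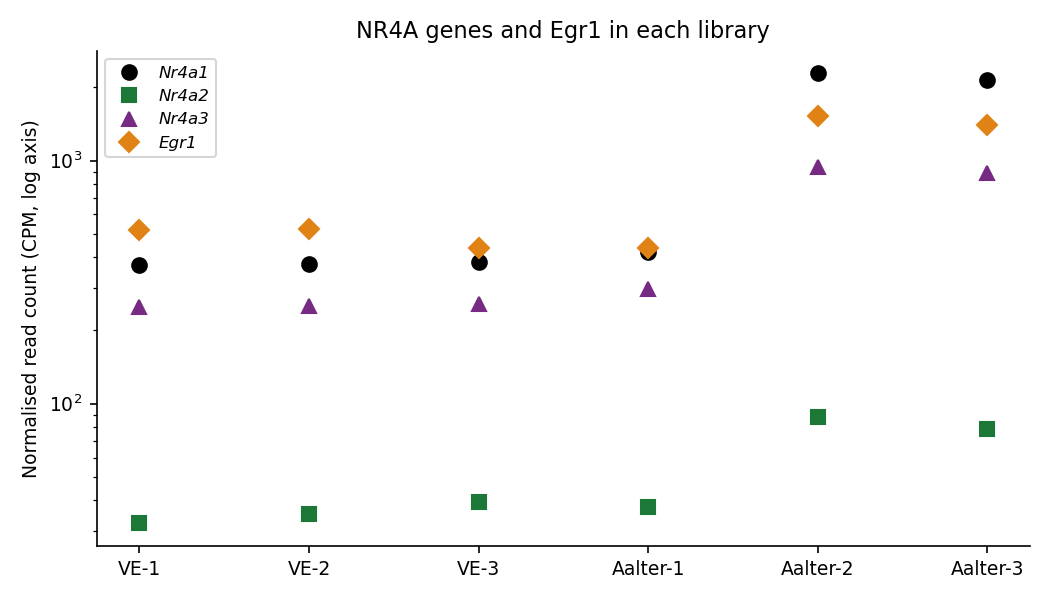
Normalised read count (CPM, log axis) of Nr4a1, Nr4a2, Nr4a3 and Egr1 in each of the 6 libraries. Aalter-1 lies at or near the VE libraries for all 4 genes, and Aalter-2 and Aalter-3 lie above, with Nr4a1 at 2285 and 2150 CPM.

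The Nr4a1 promoter is shown because it repeats CRE-like letters, of the kind bound by CREB and ATF factors. Its RefSeq window (chr15:101266596-101266895, plus strand) lies inside the GENCODE span of the gene (ENSMUSG00000023034, chr15:101254269-101274795), which begins upstream of it. Capitals mark the CRE-like letters TGCGTCA, at 235, 215, 71 and 42 bases before the start, and 3 GC boxes (GGGCGG, here read as CCGCCC on the other strand). TGCGTCA, on either strand, occurs in 2.12% of the 32851 windows, and the Nr4a1 window is the 1 window with 4 or more. The cut of 4 is the number of copies in this window itself, so this is a description with no test. GGGCGG occurs in 35.7% of them. No binding was measured.
Nr4a1: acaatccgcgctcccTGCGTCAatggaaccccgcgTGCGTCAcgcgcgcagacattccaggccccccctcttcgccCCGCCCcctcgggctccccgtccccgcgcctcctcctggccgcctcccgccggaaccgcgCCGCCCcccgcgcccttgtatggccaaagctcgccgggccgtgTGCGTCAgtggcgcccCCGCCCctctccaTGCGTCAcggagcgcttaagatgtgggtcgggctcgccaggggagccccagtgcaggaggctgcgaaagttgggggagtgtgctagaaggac

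Cebpb encodes a leucine zipper factor that keeps patrolling monocytes alive in the mouse and also acts in acute inflammation. It had 317, 316 and 316 CPM in VE and 258, 264 and 299 CPM in Aalter. The groups did not overlap, but the difference was small, and the gene did not pass (0.21 ± 0.096, adjusted p = 0.126). With GC content and length trends removed it was at 0.96 and passed (adjusted p = 0.0155, where its adjusted p over 16 alternatives reached 0.567). The longest Cebpb transcript is 67.2% G and C. Cebpb (ENSMUSG00000056501) lies at chr2:167688915-167690418 on the plus strand, and Tmem189 on the opposite strand covers 20.7% of its exon bases.

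**Figure D4:**
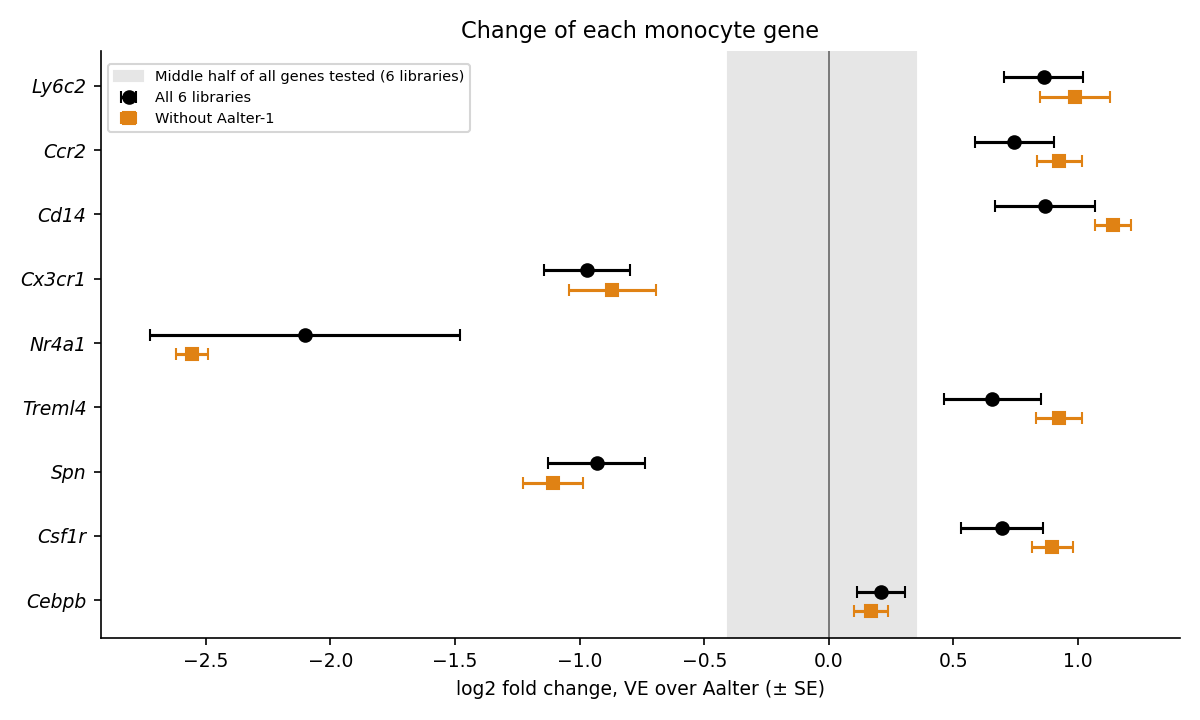
Log2 fold change (VE over Aalter) with its SE for each of the 9 genes, over all 6 libraries (black) and without Aalter-1 (orange), with the middle of the distribution over all genes tested (-0.40 to 0.35) in grey. Removing Aalter-1 moved Ly6c2, Ccr2, Cd14, Treml4, Csf1r, Nr4a1 and Spn farther from 0, and Cx3cr1 and Cebpb closer to it.

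Per kilobase of transcript, which allows genes to be compared, Cd14 stood highest in VE at 2006 CPM per kb, followed by Ly6c2 at 560, Cebpb at 210, Nr4a1 at 148, Csf1r at 38.8, Ccr2 at 31.2, Spn at 28.7, Treml4 at 21.5 and Cx3cr1 at 1.17. Of neighbours in this order, Ccr2 and Spn overlapped between libraries (28.2 to 35.1 and 26.1 to 33.9), and the others did not, though the highest Ccr2 value came near the lowest of Csf1r (35.1 and 35.8). In Aalter the order was Cd14 at 1098, Nr4a1 at 634, Ly6c2 at 308, Cebpb at 182, Spn at 54.9, Csf1r at 23.9, Ccr2 at 18.6, Treml4 at 13.7 and Cx3cr1 at 2.29 CPM per kb. The Nr4a1 libraries there ran from 165 to 895 and overlapped Cd14, Ly6c2 and Cebpb. Csf1r with Ccr2, and Ccr2 with Treml4, overlapped as well. Spn was thus above Csf1r and Ccr2 in every Aalter library, and below Csf1r in every VE library.

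The genes whose pattern over the 6 libraries was most like that of Ly6c2 were Bst2, Sec11c and Sdf2l1, with root mean square differences of 0.0469, 0.0543 and 0.0592 in centred log2 level, among 7909 genes. For Cx3cr1 they were Tnrc6b, Faah and Arhgef18, at 0.131, 0.136 and 0.140. The likeness to Cx3cr1 is looser, and Cx3cr1 is the gene with the fewest counts of the 9.

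Of 14 other genes of classical monocytes, 10 rose and 0 fell (0 also at an unadjusted p below 0.05, with DESeq2 and with limma-voom), with a median log2 fold change of 0.76 against 0.023 for all genes. The calcium-binding protein gene S100a4 rose by 0.66 ± 0.10, Ms4a6c by 0.88 ± 0.14 and the chemokine receptor gene Ccr1 by 0.77 ± 0.17. With GC content and length trends removed S100a4 was at -0.48 and did not pass, and 10 of the 14 rose there, not all of them the same genes as before. Of 15 other genes of patrolling monocytes, 4 rose and 5 fell, with a median of 0.16. For both lists, the share over all genes tested was 12.8% risen and 19.5% fallen. The Fc receptor gene Fcgr4 rose by 0.72 ± 0.11, Clec4a3 by 0.62 ± 0.10 and Apoc2 by 0.86 ± 0.15. The 5 that fell were Ace, Itgal, Pou2f2, Cd36 and Ear2, named after their values were seen, at -0.93 to -0.46. With the trends removed 3 rose and 2 fell, where 13.5% and 12.7% of all genes did, and Clec4a3 was at 0.18 and did not pass. Without Aalter-1, 13 of the other classical genes rose and 0 fell, and 6 of the other patrolling genes rose and 5 fell. Of all genes 27.8% rose and 28.5% fell in that fit.

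Ligands of these receptors went with VE in part. Ccl2, which draws CCR2-bearing cells, rose by 0.63 ± 0.11 (adjusted p = 0.00972), and the CCR2 ligands Ccl7 and Ccl12 by 0.50 ± 0.11 and 0.93 ± 0.20. Ccl8, of the same gene cluster, rose by 0.98 ± 0.20. With GC content and length trends removed none of the 4 passed, with Ccl2 at 0.15, Ccl7 at -0.26, Ccl8 at -0.11 and Ccl12 at -0.26. Csf1, the ligand of Csf1r, rose by 0.79 ± 0.22 (adjusted p = 0.0323), and was at 1.15 with the trends removed. Cx3cl1, the ligand of Cx3cr1, had 0.143, 0.419 and 0.274 CPM in VE and 1.22, 3.002 and 2.09 CPM in Aalter, and fell by 2.89 ± 0.51 (adjusted p = 0.0106). The VE values rest on 2, 5 and 4 counts, near the 0.205 to 0.251 CPM that a count of 0 allows there. The ligand and its receptor were both lower in VE, the ligand at the edge of detection. Il34 had too few counts to test.

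Of the 7 partners of CD14 in sensing lipopolysaccharide, 6 rose and 1 fell, where 12.8% and 19.5% of all genes did. Their median was 0.69. The receptor gene Tlr4 rose by 0.83 ± 0.24, its subunit gene Ly96 by 0.80 ± 0.20 and the serum carrier gene Lbp by 0.64 ± 0.17. The adaptor genes Myd88, Ticam2 and Tirap rose by 0.69 ± 0.14, 0.68 ± 0.19 and 1.03 ± 0.32, and the adaptor gene Ticam1 fell by 0.79 ± 0.22. With GC content and length trends removed Ly96 was at -0.15 and Ticam1 at -0.49, and neither passed.

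Of 12 transcription factor genes of the lineage, 5 rose and 4 fell, where 12.8% and 19.5% of all genes did. Spi1 (PU.1), which sets up the myeloid lineage, rose by 0.46 ± 0.11, Klf4, which favours monocytes, by 0.76 ± 0.18, Zeb2 by 0.50 ± 0.16 and Cebpd by 0.48 ± 0.11. Irf8, which directs progenitors to monocytes and dendritic cells, had 43.4, 46.3 and 49.5 CPM in VE and 108, 280 and 265 CPM in Aalter. It fell by 2.23 ± 0.36 (adjusted p = 0.00983), with Aalter-1 between VE and the other Aalter libraries. Bcl6 fell by 1.16 ± 0.25 and Runx1 by 0.37 ± 0.11. Cebpa was at -0.11 ± 0.11 and did not pass, and was at 0.45 with the trends removed. B cells and dendritic cells also express Irf8, and of 7 B cell markers 5 fell and of 7 dendritic cell markers 2 fell, with sums of 183 to 210.5 and 87.5 to 106 CPM in VE and of 251 to 308 and 266 to 481 CPM in Aalter. The dendritic cell sum was mostly Ccr7, which fell with Zbtb46, while the other 5 did not pass. Their part in the fall of Irf8 was not tested.

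**Figure D5:**
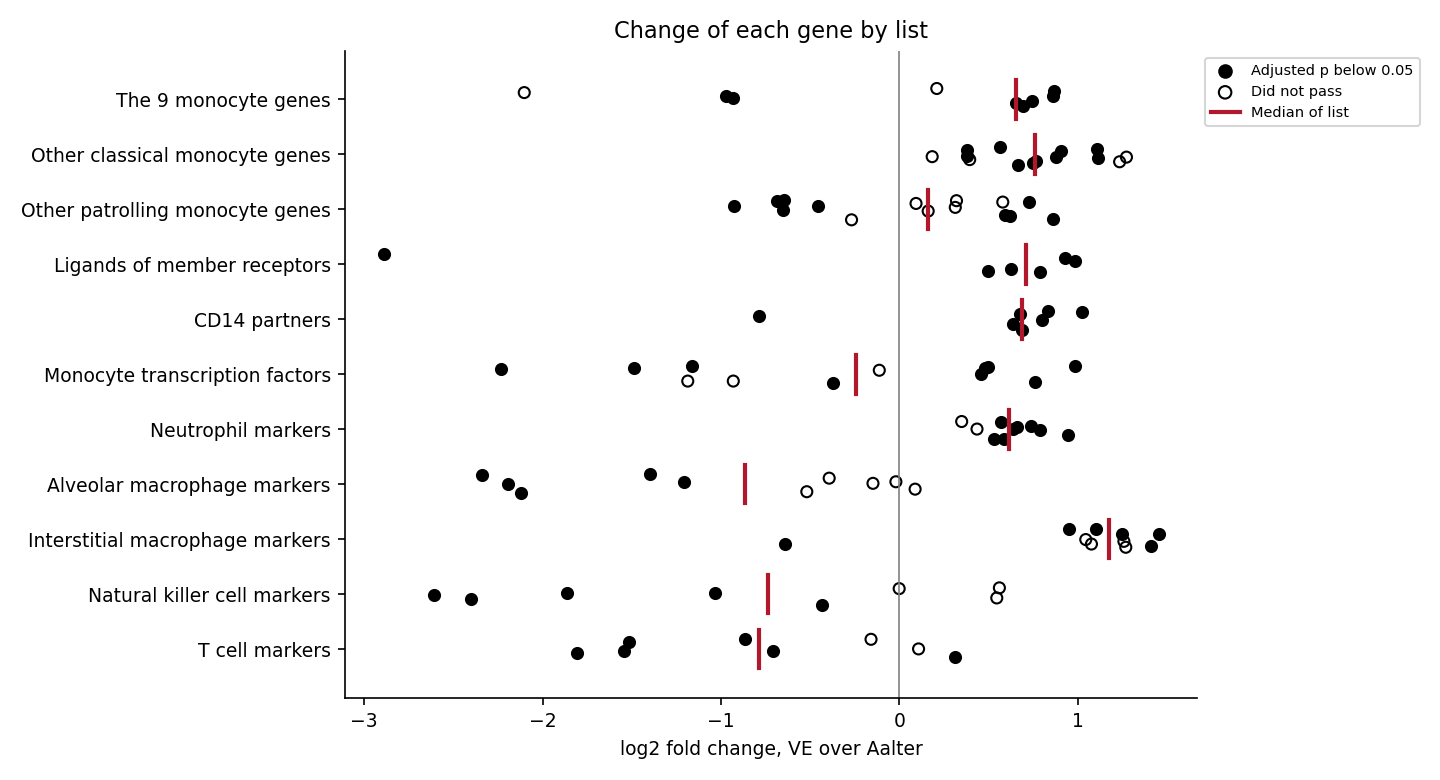
Log2 fold change (VE over Aalter) of each gene, by list, filled where the adjusted p was below 0.05 and open where it was not, with each list's median in red. The 14 other classical genes lie above 0 with a median of 0.76, and the 15 other patrolling genes lie on both sides of 0 with a median of 0.16.

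Markers of other cells that share these transcripts were counted in the same way. Of all genes tested 12.8% rose and 19.5% fell, and 13.5% and 12.7% with GC content and length trends removed. Neutrophil markers, which could carry Cd14, rose in 8 of 10 and fell in 0 (0 at an unadjusted p below 0.05, with DESeq2 and with limma-voom), led by Ngp (0.74 ± 0.14), Mmp9 (0.59 ± 0.12) and Mmp8 (0.79 ± 0.16). Their sum was 36473 to 44499 CPM in VE and 25750 to 30045 CPM in Aalter, most of it S100a8 and S100a9. Once those GC content and length trends were removed, 6 of the 10 rose, and S100a8 and S100a9, named here after their values were seen, were at -0.82 and -0.59 and did not pass. Interstitial macrophage markers, which could carry Csf1r, Ccr2 and Cd14, rose in 5 of 10 and fell in 1, led by Pf4 (1.10 ± 0.23), with a sum of 907 to 1199 CPM in VE and 432 to 789 CPM in Aalter. With the trends removed 2 of the 10 rose, and Pf4 was at 0.26 and did not pass. Alveolar macrophage markers fell in 5 of 10 and rose in 0 (0 at an unadjusted p below 0.05, with DESeq2 and with limma-voom), led by Plet1 (-2.34 ± 0.40) and Itgax (-1.21 ± 0.24), with a sum of 182 to 223 CPM in VE and 293 to 598 CPM in Aalter. The Aalter sum was mostly Plet1 and Itgax. The 5 that did not pass include Siglecf (-0.15) and Marco (0.0885), named after their values were seen. Of 6 endothelial markers, a list that holds Ly6c1, 2 rose and 1 fell, with a sum of 67.6 to 75.3 CPM in VE and 57.3 to 74.0 CPM in Aalter. Of 8 alveolar epithelial markers 3 rose and 0 fell (1 at an unadjusted p below 0.05, 0 with DESeq2 and 0 with limma-voom), with a sum of 222 to 238 CPM in VE and 172 to 183 CPM in Aalter. Napsa and Hopx made up most of that sum. The 5 that did not pass include Sftpc (0.24) and Sftpa1 (-0.53), named after their values were seen. No gene of these lists was at 0 in any library. Their part in the changes of the 9 genes was not tested.

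Scaling bears on the direction of small changes. With library size alone the median of all genes moved by -0.14, and of the genes called 13.3% rose and 86.7% fell, against 39.8% and 60.2% with TMM. Of the 9 genes 3 then rose and 3 fell, where 3.94% and 25.7% of all genes did. At that scaling 5 of the 14 other classical genes, 3 of the 6 ligands, 2 of the 7 CD14 partners, 1 of the 12 factors and 2 of the 10 interstitial macrophage markers rose. Relative to the median of all genes Ly6c2 was at 0.84 under both scalings, Cx3cr1 at close to -0.99 with TMM and with library size, and Treml4 at 0.63 under both. A change of scaling shifts all genes by nearly the same amount, so these values had to be alike for any gene. With GC content and length trends removed 51.6% of called genes rose and 48.4% fell, and of the 9 genes 6 rose and 2 fell, where 13.5% and 12.7% of all genes did.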

How the data were processed

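RNA was sequenced from 6 mouse libraries labelled lung tissue, 3 VE and 3 Aalter. The authors deposited a table of estimated counts per gene and library, not scaled, per the file headers, and between 10.5% and 12.2% of a library's values were not whole. The submitters' processing notes name the build mm10. For aligner, counter and strand setting, the entry is: not given in the sources used here. A stray cell was dropped. Each column was tied to its sample through its name and number.

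Counts were rounded and tested with edgeR 4.0.16 in R 4.3.3 (TMM scaling, filterByExpr, robust quasi-likelihood fit, group as the only term), two-sided, with Benjamini-Hochberg adjustment over all 12551 genes tested and a threshold of 0.05. Every adjusted p below is from this test unless another tool is named. Fold changes are VE over Aalter, and standard errors are the absolute log2 fold change over the root of F. Normalised read counts (CPM) use library size times the TMM factor. With 0 counts a level of up to 3 counts is possible, or 0.180 to 0.251 CPM by library, counting error only. Levels per kilobase use the longest protein-coding transcript in GENCODE vM21 (mm10), which held 99.3% of the gene IDs.

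Alternatives were RLE scaling, library size alone, DESeq2 1.42.0, limma-voom (limma 3.58.1), no filter, a mean of at least 5 CPM, a replicate block, each library left out, both libraries numbered 1 left out, and removal, per library, of GC content and transcript length trends (splines, 5 degrees of freedom; 99.8% of tested genes had both), also with the block. The test was checked on simulated data. The members and gene lists were chosen with earlier results of these data known. Named genes are the 9 members, the paralogue Ly6c1, every ligand, CD14 partner and transcription factor listed, up to 3 genes of each other list by smallest p, and the genes most like Ly6c2 and Cx3cr1 over the 6 libraries. A gene that this rule takes is not reported here. Promoter windows are RefSeq's (GRCm38.p6). Figures were drawn with Python 3.11.15 and matplotlib 3.10.9.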

Additional observations from a re-analysis of the deposited data

How the results depend on the processing

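None of the 9 genes changed sign in 16 alternatives each. Of the 144 values, 103 kept their side of the threshold, 34 lost it and 7 gained it. With library size alone 495 genes and 3 of the 9 rose. With GC content and length trends removed 1584 genes fell, and 1283 with the replicate block added. Leaving out 1 library, or both libraries numbered 1, gave 2 to 3561 genes risen and 177 to 3652 fallen, with 0 to 5 of the 9 risen and 0 to 3 fallen. The fewest calls came without VE-2 and the most without Aalter-1. Of 1050 values of 66 other named genes 18 turned sign, all on removing the GC content and length trends, without and with the block: S100a4 (-0.48, -0.42), Ccl7 (-0.26, -0.25), Ccl8 (-0.11, -0.10), Ccl12 (-0.26, -0.25), Ly96 (-0.15, -0.16), Cebpa (0.45, 0.45), S100a8 (-0.82, -0.72), S100a9 (-0.59, -0.55) and Sftpc (-0.040, -0.038). The cause was not tested.

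Same-numbered libraries deviated from their group means with correlations of 0.299, 0.272 and 0.0532. Those of the pairs numbered 1 and 2 were above all differently numbered pairs, which ran from -0.289 to 0.171. VE-3 correlated more with Aalter-2 (0.0967) than with Aalter-3. Whether the numbers pair the samples is not settled by these values. The main fit took no pairing, and the replicate block is given beside it. With the replicate block 1193 genes rose and 2074 fell, and of the 9 genes 5 rose and 2 fell. Of the 9 genes Cx3cr1 had the fewest counts, and Il34 had too few to test.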
